A study of Rattus norvegicus with 12 samples.

Results

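The first hours of butyrate and of aspirin were compared in CC531, a rat colon carcinoma cell line, on 4 of the 12 expression arrays of the series. The arrays of cells given 4.5 mM butyrate for 2 and 6 h were paired by hour with those of cells given 3 mM aspirin for 2 and 6 h, 1 array for each drug and hour, and every probe set that is not a control was used. The other arrays were of cells given the same doses of butyrate or aspirin for 12, 16 and 24 h (3 arrays each) and of untreated cells at 2 and 24 h. Dose and drug cannot be told apart, because each drug was given at 1 dose and the doses differ. With 1 array for each drug and hour, the spread behind the p-values is that among arrays of different hours and includes change over time. The labels do not say that the arrays came from separate cultures, so the rest of it may be technical. CC531 is 1 established line grown without the other cells of the gut.

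Butyrate, a short-chain fatty acid, is formed when gut bacteria ferment fibre. It is taken up as a fuel by cells of the colon, and it inhibits histone deacetylases, the enzymes that remove acetyl groups from histones and other proteins. Aspirin acetylates and blocks the cyclooxygenases, which make prostaglandins from arachidonic acid, and at higher doses its product salicylate acts on further kinases and on mitochondria.

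The epithelial keratin genes were bright on the 4 early arrays. Krt8 had 14834 and 15113 with butyrate, against 13028 and 13438 with aspirin and 15890.4 and 15438 in untreated cells, in units of array intensity. Epcam, a surface protein of epithelial cells, read 10013 to 16911 on the early arrays, and Krt19 read 7178 to 12302 on its brighter probe set. Cdx1, a factor of the intestinal lining, and 1 of the 2 probe sets of the intestinal cadherin Cdh17 were at the floor on all 12 arrays, while the other probe set of Cdh17 read 180.4 to 198. Krt20, of mature intestinal cells, was at the floor on 6 of 12 arrays. Of the markers of other cell types on the array, 7 of 17 for fibroblasts and smooth muscle, 7 of 20 for blood and immune cells, 4 of 9 for endothelium and 6 of 22 for hepatocytes were at the floor on all 4 early arrays. Among them were Pdgfrb and Des, Cd3d and Cd74, Kdr and Vwf, and Fga and Tat. The remaining members of each list were not at the floor on all 4. The share of all genes at the floor on these 4 arrays is not given here. By their mean over the 12 arrays, 2622 of all 8740 probe sets fell under a limit just above the floor (log2 6.54 against 6.51). The marker counts thus do not show that these cell types were absent. The summed intensity of the hepatocyte list was 7057 and 7841 with butyrate, against 4479 and 4835 with aspirin, while its member Apoc3, an apolipoprotein, had 694 and 1031 with butyrate, against 236 and 194 with aspirin and 1207 and 1242 in untreated cells. The fibroblast list summed to 8440.2 and 7713 with butyrate and to 7544 and 6694 with aspirin. The immune list summed to 3382 and 3221 against 3348 and 3613, and the endothelial list to 999 and 1264 against 916 and 897. Their part in the differences below was not tested. In such bulk RNA, fewer cells of a type and less RNA per cell cannot be told apart.

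In what follows, 2 values for a drug are those at 2 and 6 h, and 2 values for untreated cells those at 2 and 24 h. Intensities at or under the floor of 90.91 were raised to it before log2, and fold changes against a value at the floor are given as "at least". Differences are butyrate minus aspirin on the log2 scale, given as the mean over both hours ± the standard error of the fit, and as a bound ("at least", or "or lower") where the lower drug had a value at the floor. After a filter on dim probe sets 6118 of 8740 were tested, naming 3647 genes.

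The drugs differed more at 6 h than at 2 h, and mostly toward higher values with butyrate. At 2 h, 598 probe sets were at least 2-fold higher with butyrate and 227 at least 2-fold lower, or 13.5% of those tested. At 6 h there were 1063 higher and 395 lower, or 23.8%. At both hours, 314 probe sets naming 235 genes were at least 2-fold higher with butyrate (5.13% of those tested), and 73 naming 49 genes at least 2-fold lower (1.19%), while 39 were 2-fold apart in opposite directions at the 2 hours. These counts carry no test. Between the 2 untreated arrays, taken at 24 and 2 h, 16.5% of probe sets were 2-fold apart. Across probe sets, which are not independent, the 2 h and 6 h differences had a Pearson correlation of 0.443 and a Spearman rank correlation of 0.421.

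**Figure D1:**
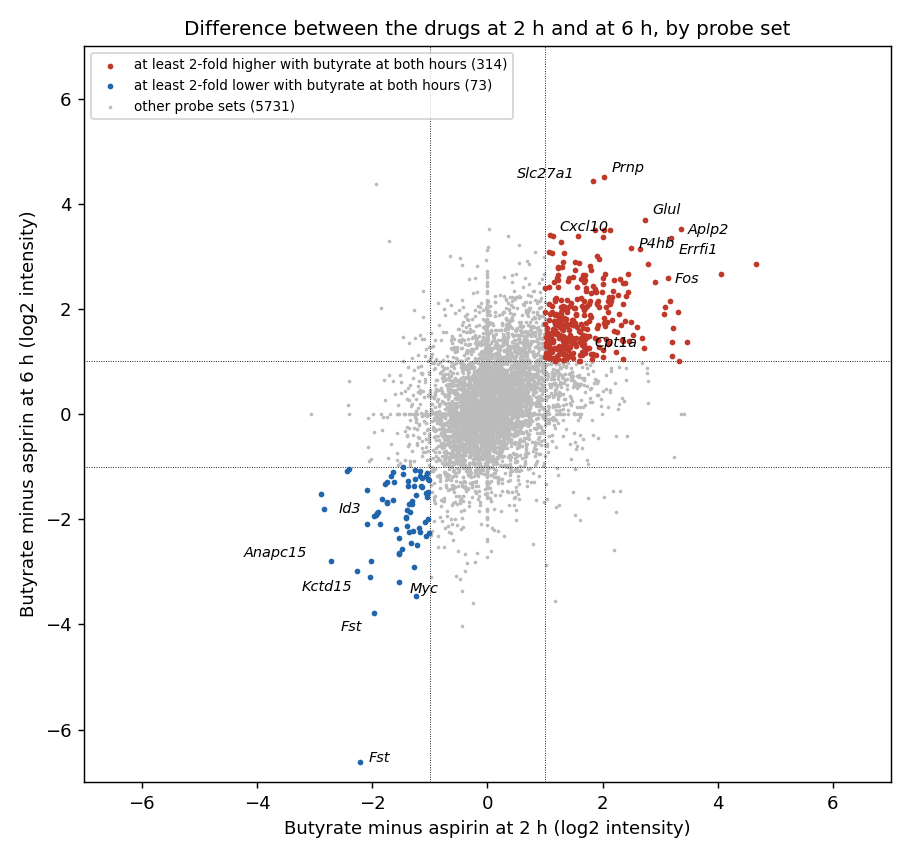
Each point is 1 of 6118 probe sets, placed by butyrate minus aspirin in log2 intensity at 2 h (horizontal) and at 6 h (vertical), with dotted lines at 2-fold; 314 probe sets lie at least 2-fold higher (red) and 73 at least 2-fold lower (blue) at both hours. Follistatin (Fst, 2 probe sets) lies farthest down, and the prion protein gene (Prnp) and the fatty acid transporter gene Slc27a1 are at the top.

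With hour as a block, limma called 0 probe sets (adjusted p threshold 0.05, 0%), although 1480 had an unadjusted p under 0.05 (911 higher, 569 lower). The smallest adjusted p was 0.0608, shared by 16 probe sets, and 507 were at or under 0.1. With all 12 arrays in 5 groups and no block, limma called 264, of which 197 were higher (3.22%) and 67 lower (1.1%), and 197 of the 264 were also 2-fold apart at both hours. The count of 264 was 38 without the butyrate array at 6 h, 363 without that at 2 h, 73 without the aspirin array at 2 h and 70 without that at 6 h. Adjusted p-values below are from the fit with the block unless they are named as unblocked. The spread in the blocked fit is the change of the drug difference between hours, within the early and within the late hours. In the unblocked fit, which leaves out the pairing by hour, it is the change between the hours of a group. None of the genes below passed with the block, so "higher" and "lower" describe the values and not calls.

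The balance of the counts depended on the scale. The median log2 intensity of tested probe sets was higher with butyrate than with aspirin by 0.30 at 2 h and by 0.43 at 6 h, and 18.5 and 14.6% of tested values were at the floor with butyrate, against 21.05 and 20.95% with aspirin. On the deposited values 81.1% of the probe sets 2-fold apart at both hours were higher with butyrate, against 60.2% after quantile normalization (194 higher, 128 lower) and 46.0% after centring each array on its median (156 and 183). The median difference over all tested genes was 0.09 as deposited, −0.02 after quantile normalization and −0.28 after median centring, which moves every list by the same amount. The untreated arrays give each drug's own side of the difference, and both sides share them. Of the 314 higher probe sets, 221 (70.4%, against 18.8% of all tested) had both butyrate values above both untreated values. In 122 (38.9%, against 21.9% of all tested) both aspirin values were below both untreated values. Of the 73 lower ones, 53 (72.6%, against 18.4% of all tested) had both butyrate values below both untreated values. In 36 (49.3%, against 12.7% of all tested) both aspirin values were above both. The same drug values chose these probe sets, so the shares are a description of them only. The count of 221 was 135 after quantile normalization and 109 after median centring.

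**Figure D2:**
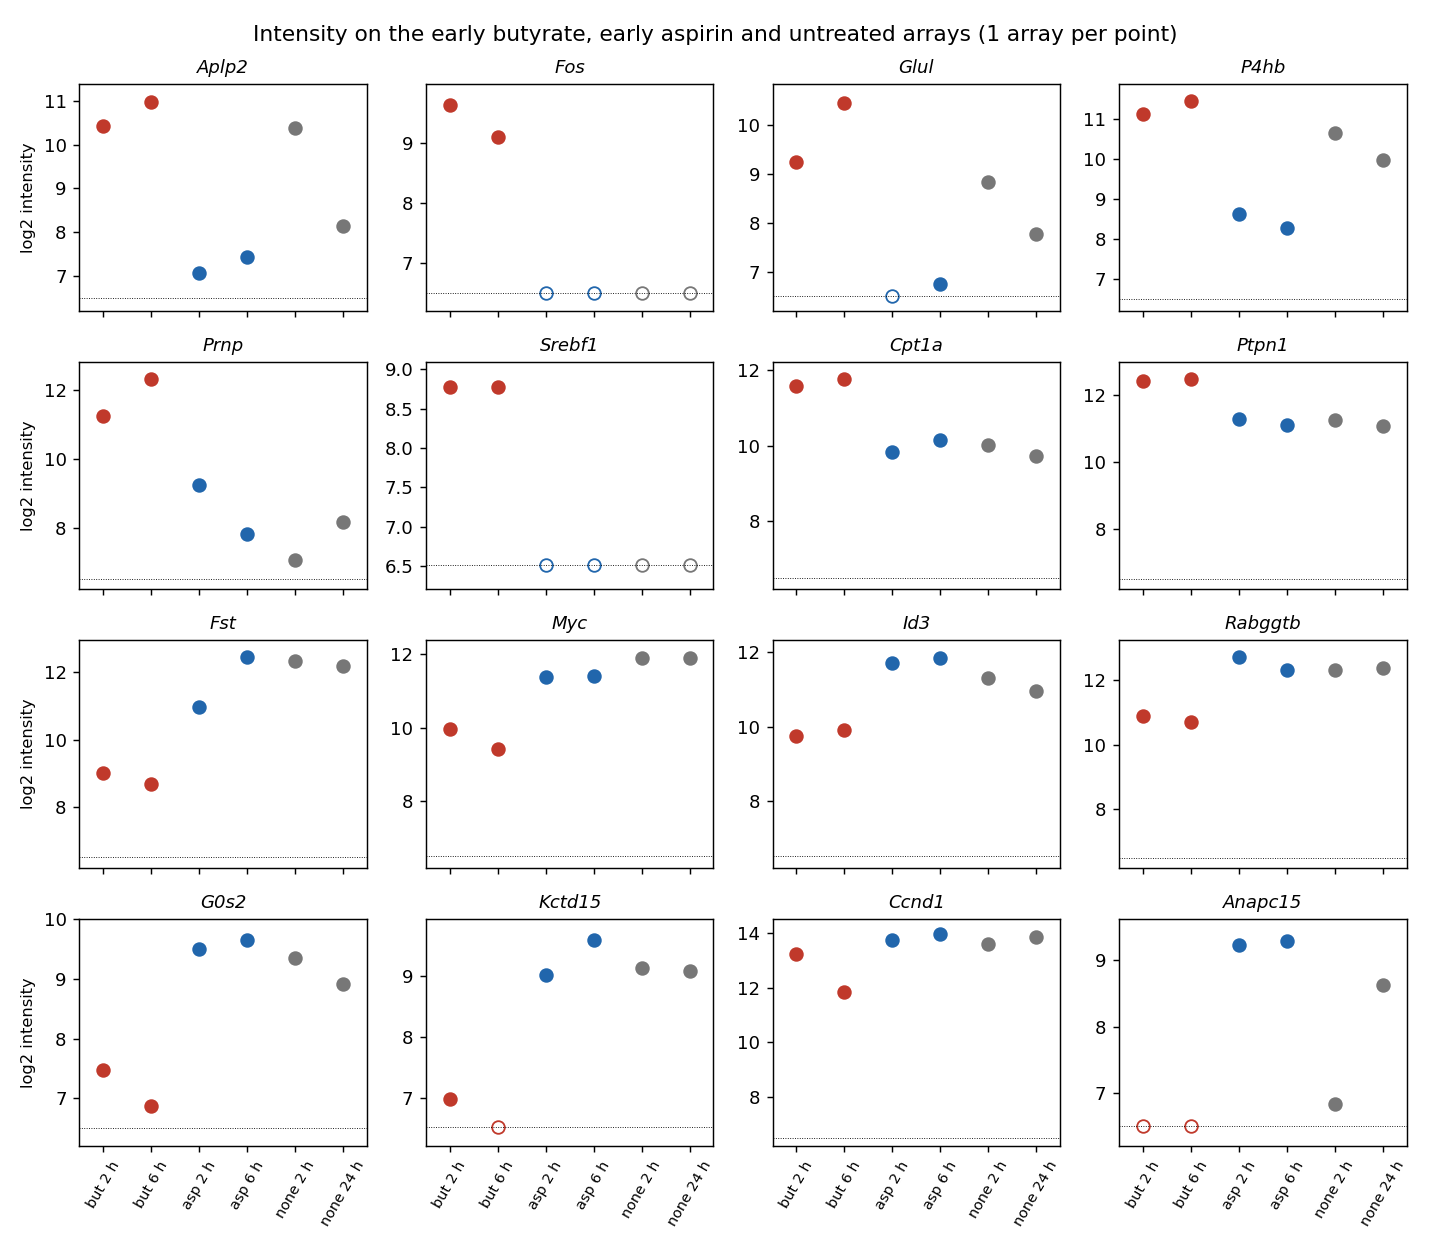
Log2 intensity of 16 genes on the butyrate arrays (red, 2 and 6 h), the aspirin arrays (blue, 2 and 6 h) and the untreated arrays (grey, 2 and 24 h), 1 array per point, with the floor dotted and values at it open. The upper 8 genes read higher and the lower 8 lower with butyrate at both hours.

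Myc and Id3, whose products hold cells in a growing and undifferentiated state, were lower with butyrate from 2 h on. Myc had 480.2 and 171 with butyrate, against 1389 and 1562 with aspirin and 2988 and 2297 in untreated cells. A second probe set read 1002 and 684 with butyrate, against 2671 and 2696 with aspirin and 3789.8 and 3821 in untreated cells. Both butyrate values lay under every aspirin and untreated value on both probe sets. The differences were −2.36 ± 0.48 (adjusted p = 0.083, unblocked 0.0179) and −1.70 ± 0.27 (0.0704, unblocked 0.00703). Max, the partner of Myc in binding DNA, had 774 and 372 with butyrate, against values at the floor with aspirin and values at the floor in untreated cells on one probe set (at least 2.56 ± 0.51, 0.082, unblocked 0.0199). On the other it read 276 and the floor with butyrate, against the floor and 94.5 with aspirin. Id3, an inhibitor of basic helix-loop-helix factors, had 862 and 965 with butyrate, against 3354 and 3714 with aspirin and 2524 and 1977 in untreated cells. Its butyrate values were below the untreated ones and its aspirin values above them. The difference of −1.95 ± 0.15 (0.0608, unblocked 0.00395) was called under 12 of the 20 alternatives, the most of the 136 probe sets checked. The alternatives share most of their arrays and are not independent. The second probe set of Id3 gave −1.47 ± 0.38 (unblocked 0.04) and was called under 5 of the 20.

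Fos, the immediate-early partner of Jun in the AP-1 factor, had 795 and 548 with butyrate, against values at the floor with aspirin and values at the floor in untreated cells on one probe set. Another had 2424 and 2137 with butyrate, against 1077 and 484 with aspirin and 930.0 and 948 in untreated cells. Butyrate exceeded aspirin by at least 2.86 ± 0.49 (unblocked 0.00602) and 1.66 ± 0.29 (unblocked 0.0294), and all 3 probe sets of Fos were higher at both hours. Egr1, another immediate-early factor, had 9976 and 12519.9 with butyrate, against 8291 and 4698 with aspirin and 2654 and 2582 in untreated cells on its brightest probe set. Both drugs read above the untreated arrays, and butyrate higher still at 6 h. Of its 4 probe sets, 3 gave a mean difference of 0.84 to 1.62, and the fourth was at or near the floor with both drugs. The immediate-early list as a whole had 3 of 29 tested members 2-fold higher and 2 lower at both hours, against 4.66% and 1.12% of all tested genes, and a median of 0.44 against 0.09. The list median was 0.03 at 2 h and 0.57 at 6 h. It was 0.16 after quantile normalization and 0.07 after median centring, against −0.02 and −0.28 for all tested genes.

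Of 5 further regulators of transcription, Srebf1, Bmal1, Klf10 and Irf1 were higher with butyrate and Usf1 was lower. Srebf1, which switches on lipid synthesis, had 439.7 and 438 with butyrate, against values at the floor with aspirin and values at the floor in untreated cells. Only the butyrate arrays were above the floor (at least 2.27 ± 0.35, unblocked 0.00399). Bmal1, a core factor of the circadian clock, had 342 and 728 with butyrate, against values at the floor with aspirin and 118 and the floor in untreated cells (at least 2.46 ± 0.47, unblocked 0.0147). Klf10, an early response factor of TGF-beta signalling, had 1862 and 1706 with butyrate, against 706 and 714 with aspirin and 1433 and 691 in untreated cells. Its aspirin values lay just over the lower untreated one (1.33 ± 0.19, unblocked 0.038). Irf1, an interferon regulatory factor, had 4260.0 and 2773 with butyrate, against 967 and 1503 with aspirin and 908 and 1469 in untreated cells (1.51 ± 0.32, unblocked 0.03). Usf1, which binds E-boxes, went the other way, with 95.0 and the floor with butyrate, against 347 and 389 with aspirin and 201 and 298 in untreated cells (−1.98 ± 0.43 or lower, unblocked 0.0379). Of the 3 tested probe sets of Usf1 only 1 was lower at both hours, and the mean differences ran from −1.98 to −0.26.

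The 250 bases before the start of 3 of the genes are shown, a factor gene higher with butyrate, a chaperone gene higher with butyrate and a factor gene lower with butyrate, from RefSeq on GRCr8. Capitals mark the letters GGGCGG (GC box) and CCAAT on either strand, whose reverse complements read CCGCCC and ATTGG; in Id3 the 2 GC boxes overlap.
Srebf1, chr10:45529165-45529414, minus strand: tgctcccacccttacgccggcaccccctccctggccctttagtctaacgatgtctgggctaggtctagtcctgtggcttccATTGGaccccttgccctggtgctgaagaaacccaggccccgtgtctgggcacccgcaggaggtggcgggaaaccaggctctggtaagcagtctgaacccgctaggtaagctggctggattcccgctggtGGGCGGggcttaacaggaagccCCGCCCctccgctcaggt
P4hb, chr10:106346912-106347161, minus strand: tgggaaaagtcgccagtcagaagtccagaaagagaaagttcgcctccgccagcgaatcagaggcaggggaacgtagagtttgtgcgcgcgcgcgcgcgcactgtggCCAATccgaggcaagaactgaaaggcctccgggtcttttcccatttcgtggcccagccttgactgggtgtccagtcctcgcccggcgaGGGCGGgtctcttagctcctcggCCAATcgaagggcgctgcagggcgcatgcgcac
Id3, chr5:153656041-153656290, plus strand: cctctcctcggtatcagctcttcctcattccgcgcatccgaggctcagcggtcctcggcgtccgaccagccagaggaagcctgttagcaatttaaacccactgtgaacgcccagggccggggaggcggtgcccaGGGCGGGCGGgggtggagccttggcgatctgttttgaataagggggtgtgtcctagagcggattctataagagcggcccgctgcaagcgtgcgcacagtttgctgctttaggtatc
RefSeq promoters were matched for 204 of the 235 genes higher at both hours, 36 of the 49 lower and 3016 of the 3647 tested. GGGCGG was found in 71.6% of the higher, 66.7% of the lower and 57.1% of the tested genes, and CCAAT in 42.6%, 19.4% and 35.8%. The E-box letters CACGTG stood in 12.7%, 8.33% and 8.26%, TGACGTCA in 2.45%, 8.33% and 2.62%, and TATAAA in 8.82%, 8.33% and 9.65%. Over all 27457 promoters in the table the shares were 32.4% for GGGCGG, 34.3% for CCAAT, 5.79% for CACGTG, 1.7% for TGACGTCA and 13.1% for TATAAA. No test was made of these shares, which rest on 7 genes for CCAAT and 3 each for CACGTG, TGACGTCA and TATAAA in the lower set.

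Fst and Errfi1 were among the 15 genes farthest apart in their direction by the smaller hourly difference. Fst, the secreted follistatin that binds activin, had 734 and the floor with butyrate, against 3397 and 8896 with aspirin and 8057 and 7154 in untreated cells. Its companion probe set read 514 and 408 with butyrate, against 2021 and 5602 with aspirin and 5199 and 4634 in untreated cells. Fst was lower with butyrate by 3.93-fold at 2 h and 13.7-fold at 6 h on the companion, and the aspirin array at 2 h also lay under the untreated ones (−2.88 ± 0.47, unblocked adjusted p = 0.00508). Errfi1, a feedback inhibitor of the EGF receptor, had 829 and 924 with butyrate, against values at the floor with aspirin and 220.1 and the floor in untreated cells on one probe set. On another it had 2911 and 2914 with butyrate, against 1257 and 895 with aspirin and 1799.7 and 1040.3 in untreated cells. Butyrate values were the highest on both, and the second differed by 1.46 ± 0.31 (unblocked 0.0305). Dusp5, a phosphatase that removes phosphate from ERK, had 3218 and 3983 with butyrate, against 1323 and 1104 with aspirin and 3168 and 946 in untreated cells. On this gene the aspirin arrays and the later untreated array were low and the earlier untreated array was near butyrate at 2 h (1.57 ± 0.45, unblocked 0.125).

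Ptpn1, Pik3r2 and Ppp3r1 were higher with butyrate than with aspirin, and Map3k12 was lower. The tyrosine phosphatase gene Ptpn1 had 5507 and 5772 with butyrate, against 2486 and 2228 with aspirin and 2450.2 and 2159 in untreated cells (1.26 ± 0.22, unblocked 0.0153). Pik3r2, a regulatory subunit of PI3 kinase, had 449.9 and 538 with butyrate, against values at the floor with aspirin and 157 and 91.8 in untreated cells (at least 2.44 ± 0.34, unblocked 0.00995). Ppp3r1, the regulatory subunit of calcineurin, had 910.5 and 510.2 with butyrate, against 174 and the floor with aspirin and 832 and 279 in untreated cells. Butyrate values lay around the untreated one at 2 h, and aspirin under both (at least 2.44 ± 0.56, unblocked 0.0591). The kinase gene Map3k12 was lower with butyrate, at 3153 and 1979.7 with butyrate, against 6885 and 5207 with aspirin and 2696 and 4927 in untreated cells (−1.26 ± 0.20, unblocked 0.0466). In the list of MAP kinases and phosphatases, 3 of 42 tested members were 2-fold higher at both hours and 1 was lower, near the 4.66% and 1.12% of all tested genes.

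Cell cycle genes differed in both directions in the first hours. Ccnd1, for cyclin D1, had 9701 and 3679 with butyrate, against 13959 and 15942 with aspirin and 12479 and 14935 in untreated cells on one of its 3 bright probe sets. It was lower with butyrate by 1.44-fold at 2 h and 4.33-fold at 6 h (−1.32 ± 0.36, adjusted p = 0.113, unblocked 0.0471). The other 2 bright probe sets differed by −1.46 and −1.33, while of the 2 dim ones 1 gave −0.74 and the other went in opposite directions at the 2 hours. Ccnd3, for cyclin D3, had 4055 and 5495 with butyrate, against 1717 and 2479 with aspirin and 2072 and 2196 in untreated cells. It was higher with butyrate (1.19 ± 0.13, 0.0617, unblocked 0.0154). Ccnb1, for the mitotic cyclin B1, had 2988 and 2157 with butyrate, against 4654 and 4259 with aspirin and 5422 and 4249 in untreated cells (−0.81 ± 0.37, 0.264). Anapc15, a subunit of the complex that degrades mitotic cyclins, was at the floor with butyrate, against 600.2 and 627 with aspirin and 114 and 398 in untreated cells (−2.75 ± 0.32 or lower, 0.0617, unblocked 0.0257). Of 30 tested members of the cell cycle list, 3 were 2-fold higher and 0 lower at both hours, against 4.66% and 1.12% of all tested genes, with a median of −0.23 against 0.09. Cdkn1a, for the kinase inhibitor p21, was at the floor with both drugs at 2 h on both of its probe sets. At 6 h one of them read 407 with butyrate, against 354 with aspirin, and the other 103 against 190.3.

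Genes for building ribosomes were lower with butyrate, and the ribosomal protein genes were lower by a small margin. In the ribosome assembly list 8 of 10 tested members were lower at both hours and 0 higher, with a median of −0.74, although 0 reached 2-fold at both hours. Gnl3, a nucleolar GTPase of dividing cells, had 3168 and 1880.0 with butyrate, against 5961 and 6097 with aspirin and 4718 and 3757 in untreated cells (−1.30 ± 0.25, adjusted p = 0.0774). Dkc1, which modifies ribosomal RNA, had 2077 and 922 with butyrate, against 3196 and 2427 with aspirin and 3209 and 3539.8 in untreated cells (−1.01 ± 0.29, 0.122). Of 36 ribosomal protein genes 31 were lower at both hours, with a median of −0.33, of 24 proteasome genes 18 (−0.36) and of 36 oxidative phosphorylation genes 23 (−0.29), against 786 of all 3647 tested genes. After quantile normalization these medians were −0.04, −0.31 and −0.09, against −0.02 for all tested genes, so that of the ribosomal proteins was then near that of all genes. Ndufa5, a complex I subunit, had 4922 and 5003 with butyrate, against 8173 and 8843 with aspirin and 5334 and 6507 in untreated cells. Butyrate values lay under both untreated values and aspirin values over both (−0.78 ± 0.13, unblocked 0.0254). The proteasome gene Psmb5 had 9656 and 8827 with butyrate, against 13642 and 15005 with aspirin and 10622 and 11563 in untreated cells (−0.63 ± 0.11, unblocked 0.0257). Rps3 had 25040.3 and 24408 with butyrate, against 32561 and 30804 with aspirin and 25905 and 29206 in untreated cells. Butyrate lay under and aspirin over both untreated values (−0.36 ± 0.08, 0.0927).

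**Figure D3:**
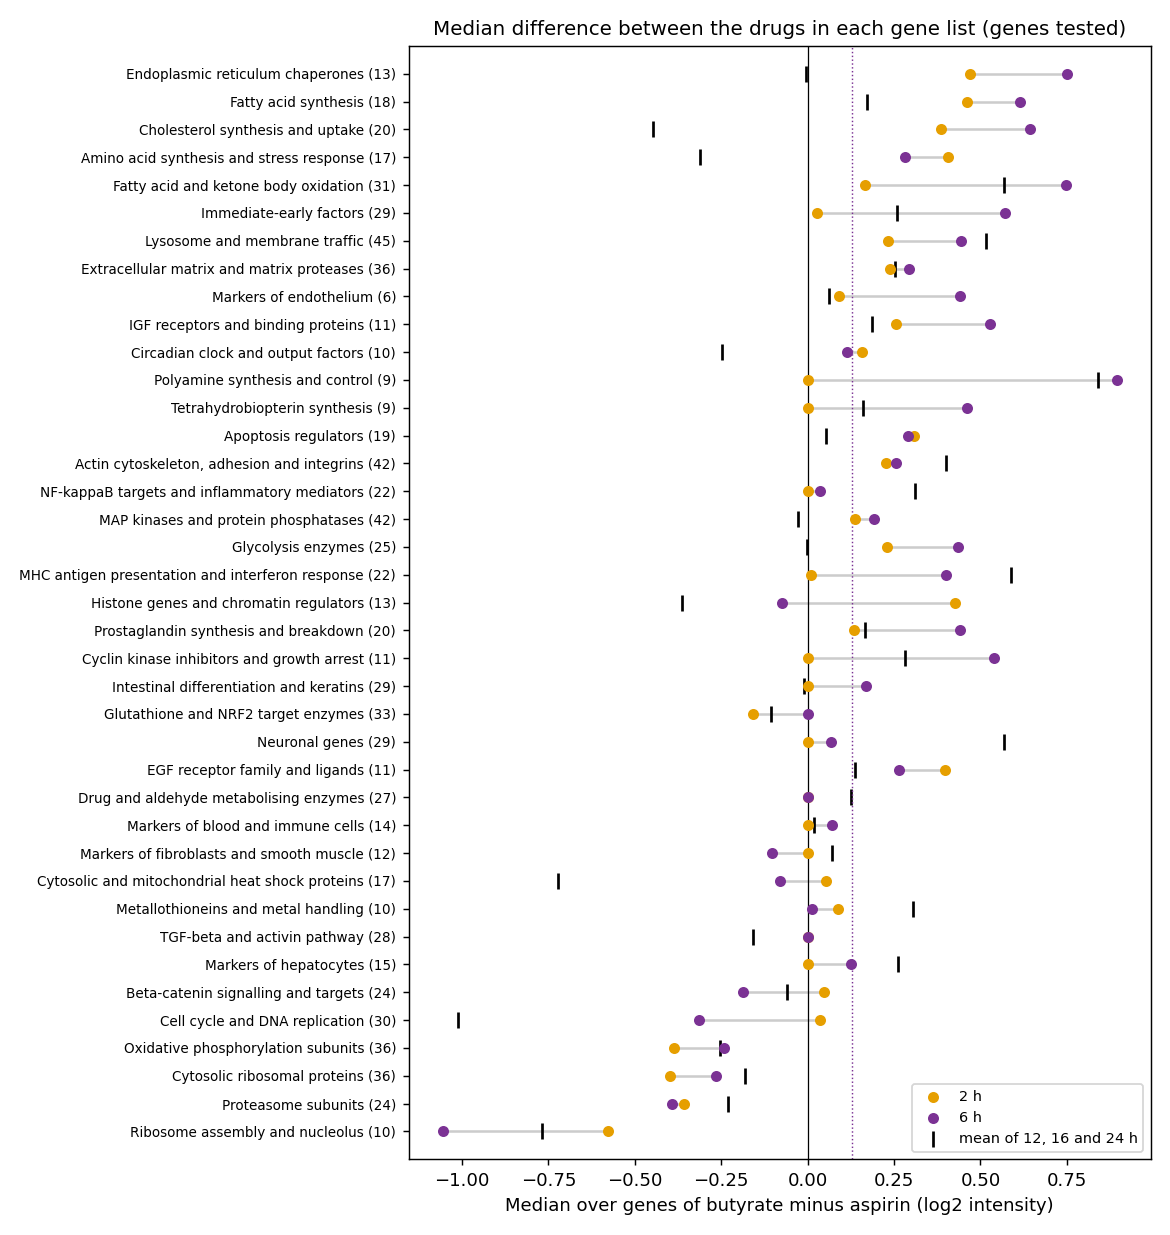
Median over the tested genes of each of 39 lists (number tested in brackets) of butyrate minus aspirin in log2 intensity at 2 h (orange), at 6 h (purple) and as the mean of 12, 16 and 24 h (black bars), 1 probe set per gene, with the median of all tested genes at 6 h dotted. Lists are ordered by the median of the early difference, with endoplasmic reticulum chaperones at the top and ribosome assembly at the bottom, and the cholesterol and chaperone lists have their late bar left of both early points.

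The endoplasmic reticulum list, of proteins that fold and modify secreted proteins, had the highest median of the 39 lists, 0.79. Of 13 tested members 10 were higher at both hours, against 1255 of all 3647 tested genes, and 2 were 2-fold higher at both, against 4.66%. The median was 0.68 after quantile normalization and 0.42 after median centring. P4hb, a disulfide isomerase, had 2228 and 2792 with butyrate, against 395 and 313 with aspirin and 1604 and 1014 in untreated cells on one probe set. Butyrate lay above and aspirin below both untreated values (2.83 ± 0.24, adjusted p = 0.0608, unblocked 0.00204). On a second it had 7815 and 9876 with butyrate, against 4963.2 and 4138 with aspirin and 5764 and 3931 in untreated cells (0.96 ± 0.16, unblocked 0.0255). For Hsp90b1, the HSP90 of this compartment, the values were 8946 and 10302 with butyrate, against 3619 and 4672 with aspirin and 10623 and 6664 in untreated cells. Butyrate overlapped the untreated arrays and aspirin was below them (1.22 ± 0.16, 0.0636, unblocked 0.0176). Pdia4, another isomerase, had 1125 and 1425 with butyrate, against 415 and 585 with aspirin and 1108 and 927 in untreated cells (1.36 ± 0.30, unblocked 0.04). Calreticulin, Calr, had 8752 and 11543 with butyrate, against 3916 and 6869 with aspirin and 7917 and 7675 in untreated cells (0.95 ± 0.16, unblocked 0.122).

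Genes of membrane traffic and the lysosome read higher with butyrate. Of 45 tested, 29 were higher at both hours and 3 lower, against 1255 and 786 of all 3647 tested genes. At 2-fold 5 were higher, against 4.66% of all. The median of 0.36 was 0.29 after quantile normalization and −0.01 after median centring. Rab3d, a GTPase of secretory granules, had 720.2 and 1425 with butyrate, against 165 and 126 with aspirin and 348 and 469 in untreated cells. Butyrate lay above and aspirin below the untreated values (2.81 ± 0.40, adjusted p = 0.0672, unblocked 0.00462). Ap1b1, a subunit of a clathrin adaptor, had 1116 and 1885 with butyrate, against 319 and 281 with aspirin and 716 and the floor in untreated cells (2.28 ± 0.30, 0.0636, unblocked 0.117). Ctsd, the lysosomal protease cathepsin D, had 2940.1 and 4196 with butyrate, against 828 and 1894 with aspirin and 1382 and 1804 in untreated cells (1.49 ± 0.20, 0.0636). Outside the list, Gorasp1, which stacks Golgi membranes, had 682 and 519 with butyrate, against values at the floor with aspirin and the floor and 289 in untreated cells (at least 2.71 ± 0.60, unblocked 0.032). Vps26a, of the retromer that recycles receptors, had 849 and 801 with butyrate, against 185 and 137 with aspirin and 118 and the floor in untreated cells (2.37 ± 0.51, unblocked 0.0176). Rabggtb, a subunit of the enzyme that attaches lipid to Rab proteins, had 1888 and 1648 with butyrate, against 6718 and 5023 with aspirin and 5109 and 5340.1 in untreated cells. Butyrate values lay under all others (−1.72 ± 0.13, 0.0608, unblocked 0.00204).

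Aplp2 and Prnp, which code for membrane proteins, were higher with butyrate than with aspirin. Aplp2, a relative of the amyloid precursor protein, had 1367 and 2003 with butyrate, against 134 and 174 with aspirin and 1335 and 283 in untreated cells. The untreated array at 2 h was near the butyrate arrays and that at 24 h nearer to aspirin (3.44 ± 0.24, adjusted p = 0.0608, unblocked 0.00995). All 4 tested probe sets of Aplp2 were higher at both hours, with differences from 0.98 to this 3.44. App itself had 1995 and 1876 with butyrate, against 1232 and 849 with aspirin and 1937 and 1079 in untreated cells (0.92 ± 0.28, 0.136). Adam10, a protease that sheds such proteins from the membrane, had 336 and 376 with butyrate, against 102 and the floor with aspirin and 1057 and 181 in untreated cells. The untreated array at 2 h was again the high one (at least 1.89 ± 0.28, 0.0678, unblocked 0.103). Prnp, the prion protein gene, had 2453 and 5144 with butyrate, against 599.7 and 226 with aspirin and 132 and 284 in untreated cells. It was higher with butyrate than on the aspirin and untreated arrays, by 4.09-fold at 2 h and 22.8-fold at 6 h over aspirin (3.27 ± 0.67, 0.0839, unblocked 0.0169). Plat, tissue plasminogen activator, had 334 and 1145 with butyrate, against the floor and 101 with aspirin and values at the floor in untreated cells (at least 2.69 ± 0.49, unblocked 0.0176). Bgn, a matrix proteoglycan, had 605 and 806 with butyrate, against 96.6 and the floor with aspirin and 716 and the floor in untreated cells. As for Aplp2, the untreated array at 2 h was near butyrate and that at 24 h near aspirin (at least 2.90 ± 0.28, 0.0608, unblocked 0.0394).

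Genes that carry fatty acids into mitochondria and burn them were higher with butyrate. Of 31 tested members of the fatty acid and ketone body list 20 were higher at both hours and 2 lower, against 1255 and 786 of all 3647. At 2-fold 5 were higher, against 4.66%. The median of 0.46 was 0.26 after quantile normalization and 0.10 after median centring. Cpt1a, the entry enzyme of mitochondrial fatty acid oxidation, had 3040.2 and 3436 with butyrate, against 914 and 1126 with aspirin and 1031 and 842 in untreated cells. The aspirin values stayed near the untreated ones, and butyrate was 3.32-fold at 2 h and 3.05-fold at 6 h over aspirin (1.67 ± 0.17, adjusted p = 0.0608, unblocked 0.00335). Cpt2, the second enzyme of that shuttle, had 1009 and 1295 with butyrate, against 437 and 602 with aspirin and 391.7 and 463 in untreated cells (1.16 ± 0.21, 0.077). Bdh1, which interconverts ketone bodies, had 1081 and 1131 with butyrate, against 476 and 343 with aspirin and 614 and 333 in untreated cells (1.45 ± 0.40, 0.116). Slc27a1, a fatty acid transporter, had 1057 and 1952 with butyrate, against 297 and the floor with aspirin and values at the floor in untreated cells (at least 3.13 ± 0.84, unblocked 0.0255). Acsl1, which activates fatty acids, had 1056 and 1690.4 with butyrate, against 529 and 600.3 with aspirin and 924 and 681 in untreated cells (1.25 ± 0.22, unblocked 0.044). G0s2, an inhibitor of the main triglyceride lipase, had 178 and 117 with butyrate, against 726 and 806 with aspirin and 656 and 482 in untreated cells. Both butyrate values lay under all others (−2.41 ± 0.43, unblocked 0.0153).

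Glul and Car3 were among the 15 genes farthest apart toward higher values with butyrate. Glul, for glutamine synthetase, had 605 and 1390.1 with butyrate, against the floor and 107 with aspirin and 458 and 217 in untreated cells (at least 3.22 ± 0.36, adjusted p = 0.0617, unblocked 0.00501). All 4 tested probe sets of Glul were higher at both hours, and the lowest difference was 0.96. The carbonic anhydrase gene Car3 had 761 and 512 with butyrate, against 169 and 102 with aspirin and 484 and 349.5 in untreated cells (2.25 ± 0.28, 0.0617, unblocked 0.0127). On Car3 aspirin lay under both untreated values and butyrate over both. In tetrahydrobiopterin synthesis, which makes a cofactor of nitric oxide and amine synthesis, 2 of 9 tested members were 2-fold higher at both hours, against 4.66% of all tested genes, and the list median was 0.26 against 0.09. Of the 9, 3 were higher at both hours and 1 lower. The median was 0.16 after quantile normalization and −0.11 after median centring. With all probe sets of a gene averaged it was 0.0003, against 0.09 for all tested genes, so the list then had no excess. Gch1, the first enzyme of this synthesis, had 1723 and 3832 with butyrate, against 793 and 458 with aspirin and 580.3 and 413 in untreated cells (2.09 ± 0.49, unblocked 0.0192). Gchfr, the regulator of that enzyme, had 613 and 1727 with butyrate, against 188 and 278 with aspirin and 183 and 321 in untreated cells (2.17 ± 0.29, 0.0636, unblocked 0.0367). Spr, the last enzyme, had 836 and 1536 with butyrate, against 1460.3 and 2248 with aspirin and 954 and 2140.1 in untreated cells (−0.68 ± 0.22, 0.153). Aldh3a2, a fatty aldehyde dehydrogenase, had 368 and 802 with butyrate, against 158 and 115 with aspirin and values at the floor in untreated cells (2.01 ± 0.46, unblocked 0.0255), but 1 of its 3 probe sets was lower with butyrate at both hours. Cat, for catalase, had 1065 and 2051 with butyrate, against 568 and 464 with aspirin and 455 and 816 in untreated cells (1.52 ± 0.33, unblocked 0.0481).

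Among inflammatory genes Cxcl10, Icam1 and Stat2 differed more at 6 h than at 2 h, and Irf1, given above, more at 2 h. Cxcl10, a chemokine that draws T cells, had 288 and 4272 with butyrate, against 131 and 409 with aspirin and 296 and 439 in untreated cells. Its butyrate value at 2 h lay just under the untreated ones and only that at 6 h was high (2.26 ± 0.60, adjusted p = 0.11, unblocked 0.184). Icam1, an adhesion receptor, had 275 and 663 with butyrate, against values at the floor with aspirin and 187 and the floor in untreated cells (at least 2.23 ± 0.37, unblocked 0.0229). Stat2, a carrier of interferon signals, had 329 and 774 with butyrate, against 166 and 147 with aspirin and 216 and 145 in untreated cells (1.69 ± 0.54, unblocked 0.0693). Of 22 tested NF-kappaB targets and inflammatory mediators 3 were 2-fold higher at both hours and 0 lower, against 4.66% and 1.12% of all tested genes. The cyclooxygenase genes, whose products aspirin blocks, were dim. Ptgs1 had 224 and 239.7 with butyrate, against 179 and 166 with aspirin and 248 and 286 in untreated cells (0.42 ± 0.31, 0.471). Ptgs2 had 138 and 192 with butyrate, against 203 and 236 with aspirin and 220.5 and 232 in untreated cells on its brighter probe set (−0.43 ± 0.27, 0.405). Of 20 tested genes of prostaglandin synthesis and breakdown 0 were 2-fold apart at both hours. Among all tested genes 4.66% were higher and 1.12% lower, so 0 of 20 is near that share.

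Several further genes were lower with butyrate. Kctd15, of a family of adaptor proteins, had 126 and the floor with butyrate, against 518 and 776 with aspirin and 562 and 548 in untreated cells (−2.57 ± 0.34 or lower, adjusted p = 0.0636, unblocked 0.00361). Adgrl2, an adhesion receptor of the latrophilin family, had values at the floor with butyrate, against 434 and 716 with aspirin and 129 and 616 in untreated cells (−2.62 ± 0.39 or lower, unblocked 0.038). All 3 tested probe sets of Adgrl2 were lower at both hours, and the smallest difference was −0.21. Hnrnpa1, which binds and splices RNA, had 2037 and 1425 with butyrate, against 7701 and 5242 with aspirin and 5041 and 2447 in untreated cells (−1.90 ± 0.19, 0.0608, unblocked 0.0153). Its 4 tested probe sets were all lower at both hours, with differences from −1.90 to −0.24. Slc16a6, of the monocarboxylate transporter family, had 390.0 and the floor with butyrate, against 1127 and 465 with aspirin and 188 and 207 in untreated cells. Aspirin was over both untreated values and butyrate on both sides of them (−1.94 ± 0.34 or lower, unblocked 0.103). The stated direction was held at both hours by 2 of 3 tested probe sets of Gch1 and of Gnl3, 4 of 5 of Ptpn1, 3 of 4 of Ccnd3, 1 of 2 of Dkc1 and 1 of 3 of Usf1, and none of the others ran the opposite way at both. For comparison, Actb, for beta-actin, had 25994 and 25756 with butyrate, against 25964 and 27610.1 with aspirin and 31974 and 31903 in untreated cells (−0.05 ± 0.08, 0.77).

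Most probe sets 2-fold apart at both early hours kept their direction later. Of the 314 probe sets higher at both early hours, 254 (80.9%) were also higher with butyrate at 12, 16 and 24 h, against 31.8% of all tested, and 6 were lower at all 3. Of the 73 lower ones, 55 (75.3%) were lower at all 3 late hours, against 22.4%, and 0 were higher at all 3. Fewer kept a 2-fold difference. At all 3 late hours 116 of the 314 were at least 2-fold higher and 30 of the 73 at least 2-fold lower. Over all 6118 tested probe sets these late counts were 383 and 197. The median difference of the 314 was 1.63 early and 1.22 late, and that of the 73 was −1.68 early and −1.16 late. Myc differed by −2.36 early and −4.46 late, and Rabggtb by −1.72 and −1.72. Car3 differed by 2.25 early and 0.47 late, with late values of 505, 510.1, 616 under butyrate and 435, 328, 421 under aspirin. P4hb narrowed to 1.34 on the probe set of the larger early difference, with 2746, 3105, 3082 under butyrate and 990.3, 1086, 1507 under aspirin. Aspirin values were thus low early and higher late for Car3 and on this probe set of P4hb. On the brightest probe set of P4hb the difference did not narrow, with 0.96 early and 1.22 late. There aspirin read 4963.2 and 4138 early and 5210, 4607, 4970 later. Ceacam1, an epithelial adhesion molecule, had 455 and 446 with butyrate, against 131 and the floor with aspirin and 583 and 419 in untreated cells early (at least 2.05 ± 0.36, unblocked 0.021) and read 271, 282, 288 under butyrate and 216, 447, 364 under aspirin later.

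With hour as a block, limma called 0 probe sets (0%) for a difference between early and late hours, with a smallest adjusted p of 0.254 and 759 at an unadjusted p under 0.05. Without the block 20 were called, 7 with a higher and 13 with a lower early difference. The following genes were chosen after their values were seen. Cyp51, an enzyme of cholesterol synthesis, had 3078 and 1457 with butyrate, against 811 and 1139.8 with aspirin and 1327 and 1759 in untreated cells, and at 12, 16 and 24 h 789, 1061, 571 with butyrate, against 2527, 3651, 4867 with aspirin. Its difference was 1.14 early and −2.18 late (unblocked adjusted p of the early minus late difference 0.0285). Dhcr7, of the same pathway, had 1773 and 1756 early and 1299, 1810.4, 1704 later with butyrate, against 608 and 641 and 1429.8, 1768, 1962 with aspirin. Sqle, another, differed by 0.63 early and −0.54 late. The early minus late difference was not called by either fit for Dhcr7 or for Sqle. The list of cholesterol synthesis and uptake had a median of 0.56 early and −0.45 late over its 20 tested members, of which 3 were 2-fold higher at both early hours, against 4.66% of all tested genes. The early median was 0.29 after quantile normalization and 0.20 after median centring. Mapkapk3, a kinase downstream of p38, had 2260.1 and 1685 early and 877, 1166, 946 later with butyrate, against 522 and 659 and 1705, 1483, 2454 with aspirin (0.0285). Its brightest probe set had 2804 and 2131 early with butyrate, against 2651 and 2023 with aspirin. There the difference was 0.08 early and −1.38 late (0.0901), so the early lead of butyrate was nearly absent. Pgm1, which interconverts glucose phosphates, differed by at least 1.66 early and −0.62 late (0.0406). It was dim, with 345 and 240 early with butyrate, against values at the floor with aspirin. The probe sets given for Cyp51, Dhcr7 and Pgm1 were not the brightest of their genes, and the brightest ones are not shown here.

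Other genes differed little early and much later. Psat1, of serine synthesis, had 13681 and 7717 with butyrate, against 10476 and 9242 with aspirin, and later 2657, 2768, 1441 against 13522, 12419, 10630.2 (unblocked adjusted p of the early minus late difference 0.0285). Il33, a cytokine of epithelial cells, had 11090.5 and 6949.8 against 11302 and 10163, and later 2032, 713, 672 against 11760.3, 11708, 11749 (0.0285). Hspd1, the mitochondrial chaperonin, had 13784 and 12399 against 11869 and 13582, and later 5229.6, 5638, 4488 against 13592, 14689, 11549.5 (0.0285). Mapt, for the microtubule protein tau, was above the floor early only at 6 h of butyrate and later read 571, 792, 1019 with butyrate, against the floor, the floor, the floor with aspirin (0.0402). The cell cycle list moved in the same sense, with a median of −0.23 early and −1.01 late, and the list of heat shock proteins had −0.01 and −0.72, while the neuronal list had 0.01 early and 0.57 late.

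**Figure D4:**
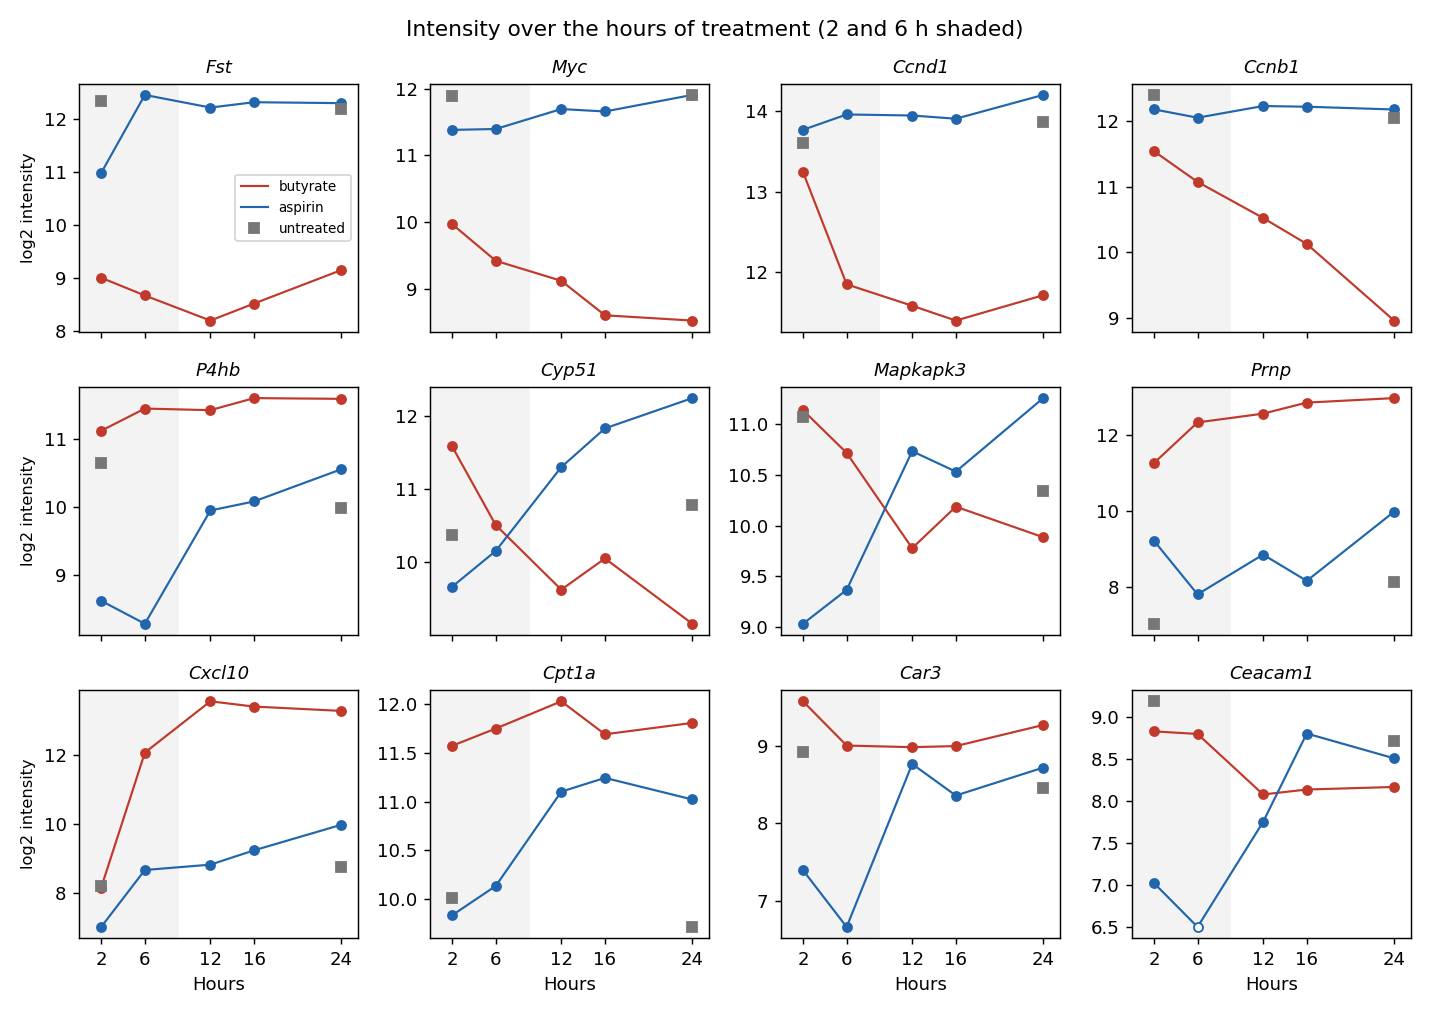
Log2 intensity of 12 genes over 2, 6, 12, 16 and 24 h of butyrate (red) or aspirin (blue) and in untreated cells at 2 and 24 h (grey squares), 1 array per point, open points at the floor, early hours shaded. The drugs are apart from 2 h on for Fst, Myc, P4hb and Cpt1a, draw apart after 2 h for Ccnd1 and Cxcl10, and cross between 6 and 12 h for Cyp51 and Mapkapk3. The Cyp51 and Mapkapk3 probe sets drawn are not the brightest of their genes, and the brightest of Mapkapk3 differed by 0.08 early.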

How the data were processed

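RNA of the CC531 line was measured on 12 arrays, and the authors deposited 1 table with 1 column per array, which holds intensity on a linear scale, as read from the values. How the table was computed, background step and scaling included, is not given in the sources used here. Without the lowest and highest 2% of values, array means lay between 1001.52 and 1002.08, so values were not normalized again. Of 8799 probe sets 59 controls were left out, and 0 columns were unused. The number of arrays limits the precision.

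Values were raised to a floor of 90.91 (the size of the 10th percentile, which was negative), put on the log2 scale, and probe sets with a mean under the 30th percentile (log2 6.54, 2622 probe sets) left out. The array annotation named 1 gene for 7006 probe sets, several for 308 and none for 1426, and 6985 symbols were matched by gene number. Limma 3.58.1 in R 4.3.3 (lmFit, eBayes with a variance trend) was fitted to the 10 treated arrays, with hour as a block and the drug difference early (2 and 6 h) and late (12, 16 and 24 h), on 3 residual degrees of freedom. The late arrays thus share in the estimate of the spread, and the early estimate is the mean of the 2 and 6 h differences. P-values were adjusted by Benjamini and Hochberg over 6118 probe sets, with a threshold of 0.05. The unblocked fit used 5 groups and 12 arrays (7 degrees of freedom). The fit was tested on simulated data.

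In each list of genes, written from general knowledge, the brightest probe set stood for its gene. There were 39 lists with 855 tested members. Genes named were the 15 with the largest smaller hourly difference in each direction, up to 4 of each list and a fixed set, with the same direction at both hours and the higher drug above the floor. From these the text uses a part, chosen after values were seen. The comparison, lists and rules were chosen with earlier results of these data known. Alternatives changed the normalization, floor, filter, variance trend, block and arrays used. Positions against untreated under these alternatives, and the unblocked fit together with other scalings, were added after seeing the data.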

Additional observations from a re-analysis of the deposited data

Results flagged for a closer look

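For 7 probe sets described here the difference between the drugs ran one way at both early hours and the other way at all 3 late hours. The brightest probe set of Mapkapk3, with 0.08 early and −1.38 late, is not counted among them. The probe sets counted for Cyp51, Mapkapk3, Pgm1 and Ap2s1 were not the brightest of their genes. Early minus late, the value was 3.32 for Cyp51 (early 1.14, late −2.18), 2.63 for Mapkapk3 (1.73, −0.89), at least 2.28 for Pgm1 (at least 1.66, −0.62) and 1.16 for Sqle (0.63, −0.54). It was at least 2.11 for Nr1d1, a repressor of the circadian clock (at least 1.51, −0.60), −0.71 for Ptgs2 (−0.43, 0.28) and −1.39 for Ap2s1, a subunit of a clathrin adaptor (−0.27, 1.12). Nr1d1 had 310.2 and 217 with butyrate, against values at the floor with aspirin and 156 and 269 in untreated cells. In limma with hour as a block the adjusted p of these contrasts was 0.254 or 0.255, and 0.501 for Ptgs2, so none was called. Without the block Cyp51, Mapkapk3 and Ap2s1 (adjusted p = 0.0285 each) and Pgm1 (0.0406) were called.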

How the results depend on the processing

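The count called between the early drugs, 0 with hour as a block, was 0 after quantile normalization, 787 after median centring (168 higher, 619 lower), 1 with the higher floor (182.2), 466 with the lower floor, 6 with no filter on dim probe sets, 662 with the stricter filter and 42 with no variance trend. With no replicate block it was 264, and 143 together with quantile normalization and 536 together with median centring. It was 0 in the 4 early arrays alone and without any 1 hour pair, and without the block 363 and 38 when the butyrate array at 2 or 6 h was left out and 73 and 70 when the aspirin one was. The pairing by hour comes from the labels and not from replicate numbers. Early minus late, 0 in the blocked fit, gave 3 calls with the lower floor, 2 with no filter, 5 with the stricter filter, 20 with no replicate block, 19 and 11 when that fit was combined with quantile normalization and median centring, and, without the block, 0, 78, 5 and 9 when butyrate at 2 h, butyrate at 6 h, aspirin at 2 h or aspirin at 6 h was left out. Probe sets 2-fold apart at both hours numbered 635 with the lower floor, against 387. Those with butyrate above both untreated arrays numbered 135 after quantile normalization and 109 after median centring, against 221. Lists with a median above 0 numbered 6 of 39 after median centring, against 28, but that centring moves every list by the same amount and puts the median of all tested genes at −0.28, against 0.09. The cause was not tested.

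Of 136 probe sets whose genes were checked, 129 kept their direction under every alternative. This count was in part fixed in advance. Most were named for having the same direction at both hours, so leaving out an hour pair could not reverse those. Another filter, no variance trend, no block or no late hour pair leave the early estimate as it was. Cdkn1a had 0.10 on one probe set, and −0.11 after quantile normalization and −0.27 after median centring, with or without the block, and −0.98 to −0.88 without single early arrays. Its other probe set reached 0.091 without aspirin at 6 h. Actb reached 0.22 after quantile normalization, with or without the block, and 0.0017 without the 6 h pair. Odc1 (0.27 on this probe set) and Krt8 reached −0.10 and −0.19 after median centring, with or without the block, and Odc1 −0.36 to 0.89 without single hour pairs and −0.22 without butyrate at 6 h. The dimmer probe set of Max ranged from −0.056 to 1.60 without single hour pairs and reached −0.028 without butyrate at 2 h. A dim probe set of Ccnd1 ranged from −0.47 to 0.47 without single hour pairs, and reached 0.32 without butyrate at 2 h and 0.15 without aspirin at 2 h.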
